A study of Mus musculus and Sus scrofa with 30 samples.

Results

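The effect of dicoumarol on 3T3-L1 cells was examined by comparing 3 libraries from cells given dicoumarol with 3 libraries from cells given vehicle, 6 of the 30 libraries of the study. 3T3-L1 is an established mouse embryonic fibroblast line, labelled as a fibroblast, whose cells can turn into fat cells in culture. Every group received the same induction mix, 0.75 µg/mL insulin, 75 nM dexamethasone and 37.5 µM isobutyl methylxanthine (IBMX) in 10% fetal bovine serum, so the controls were differentiating too. The vehicle group received DMSO and the dicoumarol group received dicoumarol, and the cells were taken on day 5. Further groups of 3 libraries each from the same line, given magnolol, magnolol together with dicoumarol (the combination) or rosiglitazone, are used below only for comparison, as is the matching pair of groups from porcine dedifferentiated fat (DFAT) cells. The DFAT mix contained 0.5 µM dexamethasone and 12.5 µM IBMX in 2% serum, with biotin and pantothenate. The sources used here give no dose for dicoumarol. The labels number the libraries 1 to 3 in each group without saying what a number marks or whether the libraries came from separate cultures. The p-values therefore measure only spread between libraries. In 3T3-L1 this is the spread left across all 15 libraries of the line once the replicate number is fitted.

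Adipogenesis runs from a committed fibroblast-like precursor to a cell that takes up, makes and stores fat. Insulin, a glucocorticoid and IBMX, which raises cAMP, first induce C/EBPβ and C/EBPδ, which in turn switch on PPARγ and C/EBPα, and these factors activate genes for fatty acid uptake, triglyceride synthesis, lipid droplet proteins and secreted hormones. Dicoumarol, an early anticoagulant, blocks the recycling of vitamin K, and the enzyme NQO1, a quinone reductase, is another of its targets. Rosiglitazone, a PPARγ agonist, is a standard strong inducer of this program.

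Values are normalized counts, the authors' gene counts divided by a size factor for each library. Differences are given on the scale of log2(value + 1), from a limma model of all 15 3T3-L1 libraries with the replicate number as a block, two-sided, with Benjamini-Hochberg adjusted p over 15723 genes and a threshold of 0.05. A gene past that threshold is called. The summed normalized counts of the 6 libraries were 26.31 to 26.88 M, mitochondrial genes took 5.22% to 7.72% and the 10 most abundant genes 6.72% to 8.90%. These sums come after scaling and do not give the depth. Vehicle 2 had the lowest mitochondrial share and dicoumarol 2 the highest.

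Genes of the fat cell were higher with dicoumarol, 18 of 28 tested members of an adipocyte list among them, and few genes were lower. That list was chosen with earlier results of these data known, and none of the 28 was called without the replicate block. Of the 15723 genes tested, 79 (0.502%) were called, 72 (0.458%) higher and 7 (0.0445%) lower. The 72 rises had a median log2 difference of 0.71 and ran from 0.32 to 2.21, and 23 of them were at least 2-fold while 25 were under 1.5-fold. The falls were smaller, −0.64 to −0.35 with a median of −0.48, and none reached 2-fold. In each of the 3 pairs of libraries with the same number, all 72 genes were higher and all 7 lower. The median rise was 0.75 in pair 1, 0.60 in pair 2 and 0.77 in pair 3. Across all genes tested, 12.8% were higher and 12.3% lower in all 3 pairs, but the called genes were selected on these same pairs.

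The calls depend on comparing libraries within their number. Among the 72 genes called higher, 42 had a vehicle library that read above a dicoumarol library, and in 39 of these vehicle 1 was above dicoumarol 2. Vehicle and dicoumarol libraries were fully apart in 30 of the 72 and in 3 of the 7, against 5.83% of all genes tested. The called genes were chosen on these same libraries, so a larger share among them is built in. Without the block, the same limma model called 0 genes (393 at an unadjusted p under 0.05, smallest adjusted p = 0.907). With 1 of the 6 libraries left out the count was 30 to 72, and it was lowest without dicoumarol 1. It was 25 without the libraries numbered 1 and 11 without those numbered 3. Of 32 called genes that the naming rule selected, Cidec, Plin1, Fam83a, Fabp4, Adipoq, Cebpa, Pnpla2 and Plat stayed called with each of the 6 libraries left out in turn and under 7 other settings that kept the block as a fixed term. With all libraries of a number left out in turn, only Fabp4, Adipoq and Pnpla2 of the 32 stayed called in all 3 settings, and Plat in 1. With the number as a random effect 6 genes were called in all, Cidec, Plin1, Fabp4 and Angptl4 among them. Of the 47 called genes outside the naming rule, 13 stayed called with each library left out, among them Fabp5, Gpat3, Agpat2, Dgat1, Plaat3, Mc5r and Kcnk3.

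**Figure D1:**
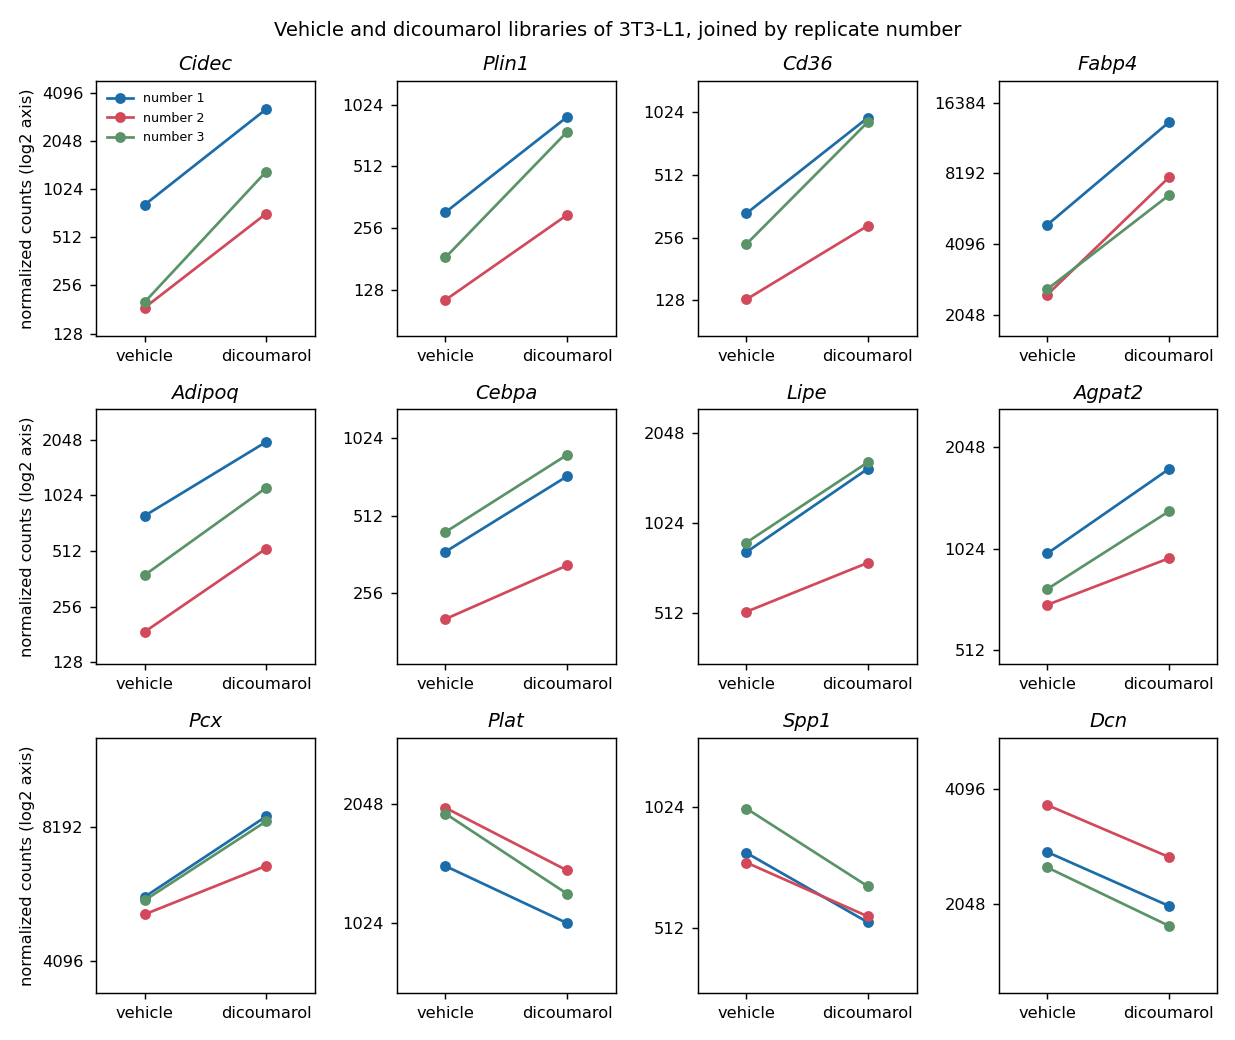
Normalized counts of 12 genes in the 3 vehicle and 3 dicoumarol libraries on log2 axes, with lines joining libraries of the same number. All lines rise in the first 9 panels and fall in the Plat, Spp1 and Dcn panels, while number 1 of the vehicle group often starts above number 2 of the dicoumarol group.

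The largest rise among the genes named by rule was in a gene of the lipid droplet. Cidec, a droplet protein that promotes fusion of small droplets into large ones, read 815, 186 and 201 normalized counts in vehicle libraries 1 to 3 and 3224, 718 and 1314 in dicoumarol libraries 1 to 3. The rise was 2.21 ± 0.27 (log2, SE), 4.63-fold, with a limma adjusted p of 8.0e-04. Each dicoumarol library was above its own vehicle library, but dicoumarol 2 was below vehicle 1. Plin1, the perilipin that coats the droplet and gates its breakdown, read 306, 114 and 184 with vehicle and 892, 296 and 755 with dicoumarol, a rise of 1.65 ± 0.17 (limma adjusted p = 2.3e-04). Here too the groups overlapped only through dicoumarol 2 and vehicle 1. Adig, encoding the small membrane protein adipogenin, was low in every library, 34.7, 6.85 and 6.97 with vehicle and 76.0, 38.1 and 44.9 with dicoumarol, yet the groups did not overlap. Fitm2, which partitions triglyceride into droplets, rose 1.46-fold from a high base of 1712 to 1874, and Lgals12, a galectin bound to the droplet, rose 2.60-fold. The Lgals12 call was lost without dicoumarol 1 (limma adjusted p = 0.0506). The other perilipin genes Plin2, Plin3 and Plin4 were not called. Plin2 read 2945, 3246 and 3372 with vehicle and 3316, 3582 and 4050 with dicoumarol. Plin3 read 4244, 3730 and 4027 with vehicle and 3842, 3679 and 4216 with dicoumarol. Plin4 read 6913, 7303 and 8175 with vehicle and 9635, 8223 and 11720 with dicoumarol, without overlap.

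Fatty acid handling rose at the steps of uptake, binding and activation. Fabp4, the carrier of fatty acids in the fat cell cytosol, had the smallest adjusted p of all genes tested. Its normalized counts were 4942, 2489 and 2627 with vehicle and 13517, 7866 and 6604 with dicoumarol, with no overlap, a rise of 1.48 ± 0.12 (limma adjusted p = 2.8e-05). Cd36, the scavenger receptor that takes up long-chain fatty acids, read 335, 129 and 238 with vehicle and 967, 292 and 922 with dicoumarol, so that again only dicoumarol 2 fell within the vehicle range. Its rise was 1.55 ± 0.22 (limma adjusted p = 0.00232). Outside the naming rule, and picked by role after their values were seen, Fabp5, another binding protein, rose 1.71-fold, Acsl1, which couples fatty acids to coenzyme A, rose 2.03-fold, and Dbi, which binds the acyl-CoA product, rose 1.33-fold.

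Triglyceride synthesis was represented at 3 of its steps, by genes that were likewise grouped by role after their values were seen. Gpat3, which adds the first acyl chain to glycerol-3-phosphate, read 220, 123 and 143 with vehicle and 463, 222 and 427 with dicoumarol, 2.24-fold higher. Agpat2, which adds the next chain, read 991, 698 and 778 with vehicle and 1757, 958 and 1318 with dicoumarol, 1.60-fold higher. The enzymes of the last step, Dgat1 and Dgat2, were 1.36-fold and 2.03-fold higher. Only Gpat3 had groups that did not overlap. Gpam, the mitochondrial enzyme for the first step and a member of the adipocyte list below, read 1148, 1249 and 939 with vehicle and 1246, 1222 and 1215 with dicoumarol and was not called (log2 difference 0.15, limma adjusted p = 0.957). The lipin genes of this pathway were not called either. Lpin1 read 1265, 1308 and 1386 with vehicle and 1794, 1477 and 1871 with dicoumarol (limma adjusted p = 0.138). Lpin2 read 707, 757 and 879 with vehicle and 677, 660 and 746 with dicoumarol, and Lpin3 73.9, 35.1 and 73.2 with vehicle and 46.8, 49.5 and 63.4 with dicoumarol.

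Some genes that break stored fat down were called higher as well, and so were genes that restrain this breakdown. Pnpla2, the adipose triglyceride lipase that starts lipolysis, read 2852, 2017 and 2755 normalized counts with vehicle and 4630, 3187 and 4374 with dicoumarol, without overlap. Its difference of 0.68 ± 0.07 was nearly the same in the 3 pairs, 0.70, 0.66 and 0.67. Lipe, hormone-sensitive lipase, which acts next, read 817, 517 and 880 with vehicle and 1553, 753 and 1632 with dicoumarol, 1.73-fold higher. G0s2, an inhibitor of the Pnpla2 lipase, rose 2.65-fold from 8.56 to 52.6 normalized counts, and its call was lost without dicoumarol 1 or dicoumarol 3. The carboxylesterase gene Ces1d, which belongs to a family of near-identical copies between which reads could be split, was 3.09-fold higher (limma adjusted p = 0.0360), a call lost without any 1 of 4 of the 6 libraries. Plaat3, an adipose phospholipase known to restrain lipolysis and named after its values were seen, had one of the smallest adjusted p-values of the comparison. It read 438, 235 and 313 with vehicle and 836, 398 and 648 with dicoumarol (0.91 ± 0.08, limma adjusted p = 7.8e-05). Mgll, the lipase of the last step, read 10.7, 3.42 and 3.49 with vehicle and 30.9, 12.4 and 8.78 with dicoumarol and was not called (limma adjusted p = 0.0926).

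Among secreted products, Adipoq, encoding the fat cell hormone adiponectin, read 794, 187 and 379 with vehicle and 1994, 528 and 1125 with dicoumarol. Its rise was 1.46 ± 0.16 (limma adjusted p = 2.3e-04), at 1.33, 1.49 and 1.57 in the 3 pairs, although dicoumarol 2 was below vehicle 1. Retn, encoding resistin, read 112, 24.0 and 34.9 with vehicle and 247, 71.4 and 97.5 with dicoumarol, and was not called without dicoumarol 1 (limma adjusted p = 0.0594). Angptl4, a secreted inhibitor of lipoprotein lipase and a PPAR and glucocorticoid target, read 1384, 1203 and 1353 with vehicle and 2374, 2130 and 1865 with dicoumarol, without overlap. Rarres2, encoding chemerin and named by role, was 1.60-fold higher. Lpl itself, the lipoprotein lipase, was by far the most abundant gene of the adipocyte list, 53196, 39958 and 38886 with vehicle and 73586, 55043 and 49177 with dicoumarol. The groups overlapped, and its difference of 0.42 ± 0.10 was not called (limma adjusted p = 0.0787). Lep, the leptin gene, had at most 2.67 normalized counts in any of the 6 libraries.

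Cebpa had the largest rise among the called transcriptional regulators. It read 371, 204 and 443 with vehicle and 728, 329 and 882 with dicoumarol, 0.88 ± 0.11 higher (limma adjusted p = 7.0e-04), with dicoumarol 2 again inside the vehicle range. Nr1h3, the oxysterol receptor LXRα, and Ppargc1b, a coactivator of mitochondrial genes, rose 1.53-fold and 1.58-fold. The Ppargc1b call (limma adjusted p = 0.0488) was lost with any 1 of the 6 libraries left out, and the Nr1h3 call in 4 of those 6 settings. These 3 were the called genes among 20 tested adipogenic transcription factors, against 0.458% of all genes called higher. Of the 20, 17 had a difference above 0, against 50.2% of all genes tested, and the median was 0.25. Pparg, the master regulator of the fat cell, read 1353, 1149 and 1247 with vehicle and 1625, 1184 and 1484 with dicoumarol. Its libraries overlapped and its difference of 0.19 ± 0.07 was not called (limma adjusted p = 0.505). The early factor Cebpb had a difference of 0.11 ± 0.14, with pairs in opposite directions.

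Because these genes were higher together, the 250 bases before the transcription start were searched for short motifs in the RefSeq promoter table (GRCm38.p6), which held an entry for 46 of the 72 genes called higher. Both strands were searched, and a gene was counted if any of its listed windows held the motif (68 windows for the 46 genes). The binding motif of C/EBP factors, TTGCNNCAA, was present for 3 of the 46 genes (6.52%: Abhd15, Fgfr3 and Thrsp), against 1.43% of 10167 tested genes with an entry. The CCAAT box, which can overlap it, was present for 23 (50.0%) against 41.2%. The spaced direct repeat bound by PPAR-RXR was found in none, against 0.0492%, and its hexamer AGGTCA in 3 (6.52%) against 12.6%. The antioxidant element core TGACNNNGC was in 3 (6.52%) against 13.7%, and the E-box CACGTG in 5 (10.9%) against 9.86%. A match is a string of letters and not a measured binding site. The windows of 4 of the genes with the largest rises are shown because they differ in these motifs. Capitals mark AGGTCA, TTGCNNCAA or CCAAT on either strand. The Plin1 window, chr7:79732777-79733026 on the minus strand, holds none, and Adipoq, chr16:23146286-23146535 on the plus strand, holds 3 CCAAT boxes. Cd36, chr5:17835897-17836146 on the minus strand, holds an AGGTCA on the opposite strand and a CCAAT box, and Thrsp, chr7:97417551-97417800 on the minus strand, holds a C/EBP motif overlapped by a CCAAT box and another CCAAT box.
Plin1: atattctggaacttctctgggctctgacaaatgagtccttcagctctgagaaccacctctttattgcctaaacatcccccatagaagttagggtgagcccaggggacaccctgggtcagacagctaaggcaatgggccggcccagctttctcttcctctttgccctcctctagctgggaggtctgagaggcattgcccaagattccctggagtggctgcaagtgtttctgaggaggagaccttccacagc
Adipoq: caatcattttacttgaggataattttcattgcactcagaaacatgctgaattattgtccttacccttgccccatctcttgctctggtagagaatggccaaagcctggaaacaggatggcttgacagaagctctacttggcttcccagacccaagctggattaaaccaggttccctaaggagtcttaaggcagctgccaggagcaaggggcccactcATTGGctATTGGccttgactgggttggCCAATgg
Cd36: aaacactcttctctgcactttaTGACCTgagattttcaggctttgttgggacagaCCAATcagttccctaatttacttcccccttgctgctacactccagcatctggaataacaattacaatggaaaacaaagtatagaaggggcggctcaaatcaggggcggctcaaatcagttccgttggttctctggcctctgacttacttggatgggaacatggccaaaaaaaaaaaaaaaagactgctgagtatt
Thrsp: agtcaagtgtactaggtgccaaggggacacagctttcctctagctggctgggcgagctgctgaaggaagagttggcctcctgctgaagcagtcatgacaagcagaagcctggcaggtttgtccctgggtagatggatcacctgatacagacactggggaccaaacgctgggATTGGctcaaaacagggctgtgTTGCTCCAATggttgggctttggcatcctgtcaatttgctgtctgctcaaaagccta

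Thrsp, the nuclear protein Spot14 tied to fatty acid synthesis, showed how far replicate numbers could differ. It read 243, 61.6 and 33.7 normalized counts with vehicle and 647, 191 and 124 with dicoumarol, so that 2 of the 3 dicoumarol libraries were below vehicle 1. The pair differences of 1.41, 1.62 and 1.85 were nonetheless close, and the gene was called (1.63 ± 0.32, limma adjusted p = 0.0336). Leaving out any 1 of vehicle 2, vehicle 3, dicoumarol 1 or dicoumarol 2 ended the call.

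Mitochondrial genes were called at smaller folds. The role group of 10 such genes, again formed after the values were seen, ranged from 1.25-fold to 1.43-fold. Pcx, pyruvate carboxylase, which supplies oxaloacetate for lipogenesis, read 5715, 5224 and 5616 with vehicle and 8661, 6711 and 8445 with dicoumarol, without overlap. Slc25a1 and Slc25a10, the citrate and dicarboxylate carriers, rose 1.26-fold and 1.39-fold, and Idh3a and Pdhb, of the citrate cycle and the pyruvate dehydrogenase complex, 1.37-fold and 1.26-fold. Bcat2, which starts the breakdown of branched-chain amino acids, rose 1.30-fold, and cytochrome c (Cycs) and its reductase subunit Cyc1 1.34-fold and 1.29-fold. In the list of mitochondrial energy metabolism, 32 of 33 tested genes had a difference above 0, against 50.2% of all genes tested. In all 3 pairs 23 were higher, against 12.8% of all genes. The median was 0.17, however, and only Idh3a and Bcat2 were called, against 0.458% of all genes called higher. With 1 of the 6 libraries left out in turn, Idh3a lost its call in 4 settings and Bcat2 in 5, and each of the 10 genes of the role group lost it in at least 3.

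Several called genes encode receptors and signalling proteins of the fat cell. Mrap, the accessory protein of melanocortin receptors, read 56.1, 12.0 and 9.30 with vehicle and 132, 24.8 and 33.2 with dicoumarol, and its call at a limma adjusted p of 0.0443 was lost without any 1 of 4 libraries. Mc5r, a melanocortin receptor, was 2.20-fold higher and Kcnk3, a potassium channel, 2.02-fold. Sh2b2, an adaptor of the insulin receptor, and Trarg1, which regulates traffic of the glucose transporter GLUT4, were 1.61-fold and 1.99-fold higher. The GLUT4 gene itself, Slc2a4, read 10.7, 5.99 and 5.81 with vehicle and 42.4, 6.67 and 13.7 with dicoumarol and was not called (limma adjusted p = 0.258). Other large rises selected by the naming rule were Fam83a at 2.85-fold, A530016L24Rik at 3.00-fold and Mcam, a cell adhesion molecule, at 2.73-fold. The call of Mcam was lost without dicoumarol 1 and that of A530016L24Rik without dicoumarol 1 or dicoumarol 3. Of the 72 genes, 69 were annotated as protein-coding, and Gm14328, Gm6166 and Smkr-ps as pseudogenes. Pseudogenes can share reads with similar genes, so these 3 are uncertain, as is the gene model Gm10053.

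The other called genes were smaller or less easily placed, and were named after their values were seen. Scarb1, the HDL receptor, rose 1.44-fold without overlap, Slc5a6, the carrier of biotin and pantothenate, 1.66-fold without overlap, and Hk2, a hexokinase, 1.28-fold without overlap. Apmap, an adipocyte plasma membrane protein, rose 1.41-fold, Tmem120a, a membrane protein needed for fat cell differentiation, 1.42-fold, and Arxes2, a PPARγ target of adipocytes with a near copy between which reads could be split, 1.67-fold. Pex11a, of peroxisome division, and Mgst3, a microsomal glutathione transferase, rose 1.37-fold and 1.42-fold, both without overlap. Further genes, Prxl2a, Reep6, Paqr4, Bcar3, Rpusd3, Tmcc3, Mcrip2, Itga7, Cib2, Wnk4 and Smkr-ps, had log2 differences of 0.34 to 2.10. Smkr-ps at the upper end rested on 0.891, 1.71 and 1.16 normalized counts with vehicle and 10.6, 8.57 and 6.83 with dicoumarol.

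The 7 genes called lower were Plat, Spp1, Dcn, Aqp1, Tpm1, C1s1 and Hacd4. Plat, tissue plasminogen activator, read 1424, 1998 and 1931 with vehicle and 1023, 1389 and 1213 with dicoumarol, without overlap, and fell by 0.56 ± 0.08 (limma adjusted p = 0.00232). Spp1, the secreted phosphoprotein osteopontin, read 787, 744 and 1015 with vehicle and 527, 546 and 648 with dicoumarol, also without overlap. Dcn, the collagen-binding proteoglycan decorin, read 2796, 3715 and 2548 with vehicle and 2020, 2715 and 1791 with dicoumarol, with an overlap of dicoumarol 2 and the vehicle group. The water channel gene Aqp1 had the largest fall, from 744, 993 and 681 to 518, 513 and 504. Tpm1, a tropomyosin of actin filaments, C1s1, a complement protease, and Hacd4, an enzyme of very long fatty acids, fell to 0.785, 0.786 and 0.723 of the vehicle level. C1s1 has a near copy in the mouse genome and its counts could be split. Plat was the only one of the 7 that stayed called with each of the 6 libraries left out in turn. Spp1, Hacd4, Tpm1 and C1s1 each lost the call in 5 of the 6 settings and Dcn and Aqp1 in 4.

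Gene lists gave the wider picture, with lists and members chosen with earlier results of these data known. Of 28 tested adipocyte genes, 18 were called higher and none lower, against 0.458% of all genes called higher. All 28 had a difference above 0, against 50.2% of all genes tested, and 27 were higher in all 3 pairs. Their median difference was 1.03, and without the block none was called. The 10 adipocyte genes not called were Aqp7, Lpl, Gpd1, Pck1, Plin4, Cfd, Slc2a4, Mgst1, Car3 and Gpam, with differences from 0.15 to 2.01. Several of these were large but uneven: Gpd1, glycerol-3-phosphate dehydrogenase, read 969, 256 and 180 with vehicle and 2663, 596 and 663 with dicoumarol, and Pck1 rested on 14.1 and 6.83 normalized counts in dicoumarol 1 and 3.

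Per library, the median adipocyte gene stood 0.52, −0.36 and −0.06 (log2, relative to the vehicle mean) in vehicle 1, 2 and 3 and 1.85, 0.34 and 0.94 in dicoumarol 1, 2 and 3. Dicoumarol 2 was therefore below vehicle 1 on this measure and above the vehicle library of its own number. In bulk RNA, more cells that reached the fat cell state and more transcript per cell cannot be told apart.

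The neighbouring lists moved less. Of 23 tested genes of lipogenesis and cholesterol synthesis, 23 had a difference above 0, against 50.2% of all genes tested. The median was 0.18, however, and only Slc25a1 was called, against 0.458% of all genes called higher. That call was lost with any 1 of the 6 libraries left out. Fasn, fatty acid synthase, read 8234, 8066 and 8022 with vehicle and 10135, 8969 and 10972 with dicoumarol and was not called (limma adjusted p = 0.276) although the groups did not overlap. Scd1, the stearoyl-CoA desaturase, overlapped, with 3331 to 7057 normalized counts with vehicle and 4444 to 11267 with dicoumarol. In the list of droplet coat and lipolysis genes, G0s2 and Angptl4 were called among 12 tested and 10 were not, against the same 0.458%. The median of this list was 0.20.

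Lists of the fibroblast and matrix state had medians below 0. Over all genes tested, 0.0445% were called lower, and 991 of 15723 had an unadjusted p under 0.05 in either direction. Among 30 extracellular matrix genes the median was −0.13, 13 were lower in all 3 pairs against 12.3% of all genes, and only Dcn was called. Col1a1, the main collagen chain, read 89652, 88329 and 110120 with vehicle and 75323, 88964 and 95016 with dicoumarol and was not called (limma adjusted p = 0.943). The median of 12 contractile genes was −0.23, with Tpm1 called. Smooth muscle actin, Acta2, read 5383, 4354 and 2756 with vehicle and 3284, 2681 and 2268 with dicoumarol (limma adjusted p = 0.0622). None of 20 preadipocyte genes was called by limma (3 at an unadjusted p under 0.05), with a median of −0.14, and Dlk1, the preadipocyte marker Pref-1, read 27581, 19864 and 23620 with vehicle and 21524, 20840 and 20384 with dicoumarol. None of 22 inflammation and interferon genes was called either (5 at an unadjusted p under 0.05), with a median of −0.18 and 8 lower in all 3 pairs. In the latter the chemokine gene Ccl2 read 348, 414 and 373 with vehicle and 273, 240 and 239 with dicoumarol, without overlap (limma adjusted p = 0.403).

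**Figure D2:**
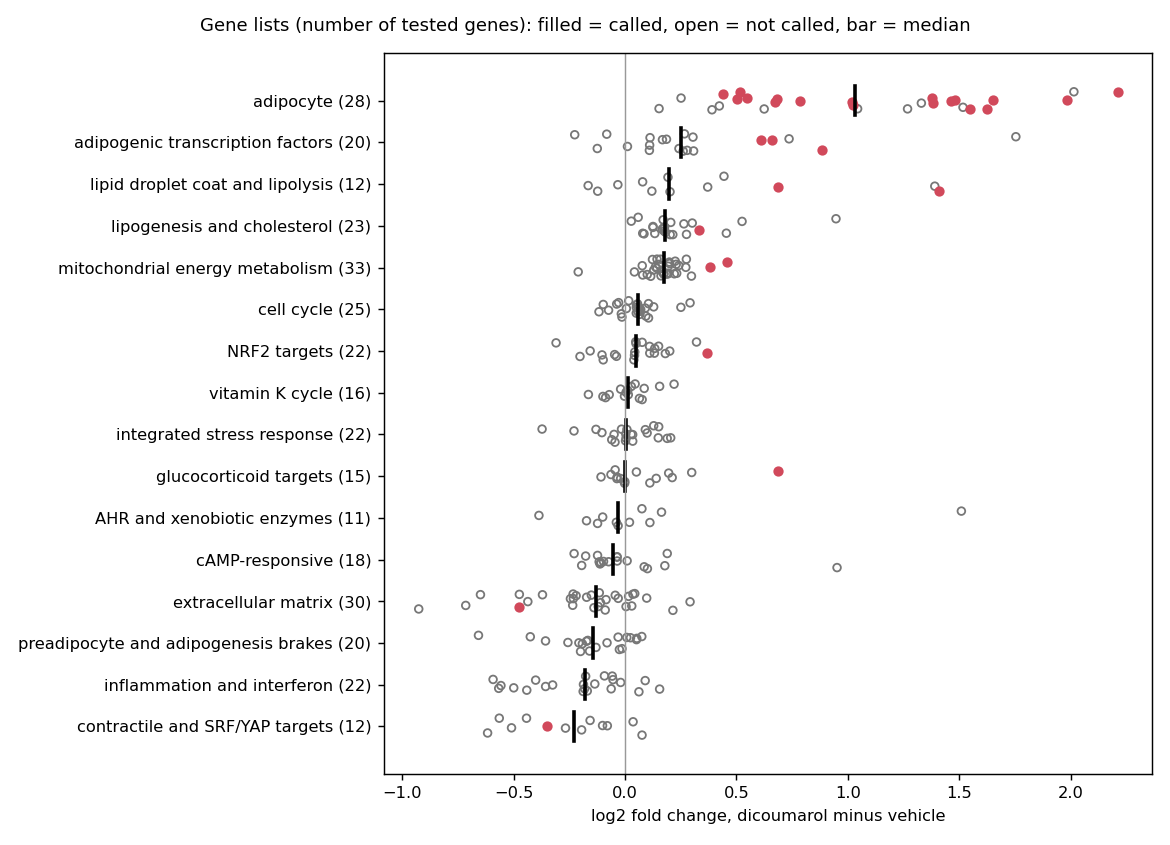
Log2 differences between dicoumarol and vehicle for each tested gene of 16 lists, with the number tested in brackets, filled points for called genes and a bar at the list median. The adipocyte list has its median at 1.03 and 18 called genes, and all other medians lie between −0.23 and 0.25.

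Genes tied to the known targets of dicoumarol were not called. These are RNA levels, and the activity of the proteins was not measured. Nqo1, the quinone reductase it inhibits, read 1309, 1457 and 1153 with vehicle and 1435, 1614 and 1114 with dicoumarol, a difference of 0.08 ± 0.07 (limma adjusted p = 1.00). Vkorc1, the vitamin K epoxide reductase, read 838, 611 and 1136 with vehicle and 711, 844 and 930 with dicoumarol, and Ggcx, the carboxylase that uses vitamin K, 890, 940 and 1186 with vehicle and 857, 909 and 1305 with dicoumarol. The difference was −0.02 ± 0.13 for Vkorc1 and 0.01 ± 0.07 for Ggcx, and both changed sign under other settings. Of 16 tested vitamin K cycle genes limma called 0, against 0.502% of all genes, a share at which a list this short would often hold none. Their median was 0.01, and 1 of them, Aifm2, which reduces vitamin K and ubiquinone, had an unadjusted p under 0.05, as had 991 of all 15723 genes tested.

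Calls in the stress and hormone lists stand beside 0.502% of all genes called, a share at which lists this short would often hold none. Of 22 tested NRF2 targets, Taldo1, transaldolase of the pentose phosphate pathway, was called at 1.29-fold, a call that held in only 1 of the 6 settings with a library left out, and the median was 0.05. The NRF2 target Hmox1, heme oxygenase, had a difference of 0.18 ± 0.08 (limma adjusted p = 0.755). None of 22 integrated stress response genes, 18 cAMP-responsive genes, 25 cell cycle genes or 11 AHR and xenobiotic genes was called by limma. In that order 2, 2, 1 and 3 of them had an unadjusted p under 0.05, against 991 of all 15723 genes tested. The medians, in the same order, were 0.01, −0.05, 0.06 and −0.03. Ddit3, encoding the stress factor CHOP, had a difference of −0.13 ± 0.12. Among 15 glucocorticoid targets Angptl4 alone was called and the median was 0.00.

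Markers of other cell types were read beside these results. Summed over the list, macrophage markers read 416 to 436 normalized counts in the vehicle libraries and 324 to 368 in the dicoumarol libraries, mostly from Cd14 and Lyz2, a gene with a near copy. None of the 4 tested was called by limma, and 1 of them, Lyz2, had an unadjusted p under 0.05. Endothelial markers summed to 9.30 to 34.2 with vehicle and 11.7 to 29.5 with dicoumarol, with none abundant enough to test. Myogenic markers summed to 76.2 to 117 with vehicle and 80.0 to 108 with dicoumarol. Ucp1, which defines brown fat, was at 1.71 in vehicle 2 and at 0 in the other 5 libraries, and none of 5 tested brown and beige genes was called by limma (1 at an unadjusted p under 0.05). Osteoblast and chondrocyte markers summed to 4972 to 5126 with vehicle and 4525 to 4851 with dicoumarol, mostly from Sox9. Among them Spp1 was called lower and Runx2, Sox9 and Alpl were not, and Acan was at 0 in all 6 libraries. The macrophage sum moved with the groups, as did the sum of bone and cartilage markers, and their part in the other results was not tested.

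The same question was asked on a background of magnolol by comparing the 3 combination libraries with the 3 magnolol libraries, none of which enters the dicoumarol and vehicle groups, although the fit shares its spread and block. No gene was called in that comparison (limma, 1136 genes at an unadjusted p under 0.05, smallest adjusted p = 0.0577). Of the 72 genes higher with dicoumarol alone, 71 were also above 0 here, against 50.6% of all genes tested, and 56 had an unadjusted p under 0.05. Their median difference was 0.32. All 7 genes called lower were below 0 here as well, 6 of them at an unadjusted p under 0.05. Fabp4 was 0.65 higher, Pnpla2 0.38 and Plin1 0.38, whereas Aqp1 and Spp1 were 0.78 and 0.68 lower. Over the 28 adipocyte genes the median was 0.31, and 27 were above 0.

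Whether the effect of dicoumarol differed with and without magnolol was tested as an interaction. No gene passed (limma, 194 genes at an unadjusted p under 0.05, smallest adjusted p = 0.765). The genes named here were chosen on libraries that enter the interaction, so its sign for them is not independent. For Cidec the difference was 2.21 without magnolol and 0.60 with it, for Cd36 1.55 and 0.23, and for Plat −0.56 and −0.45.

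**Figure D3:**
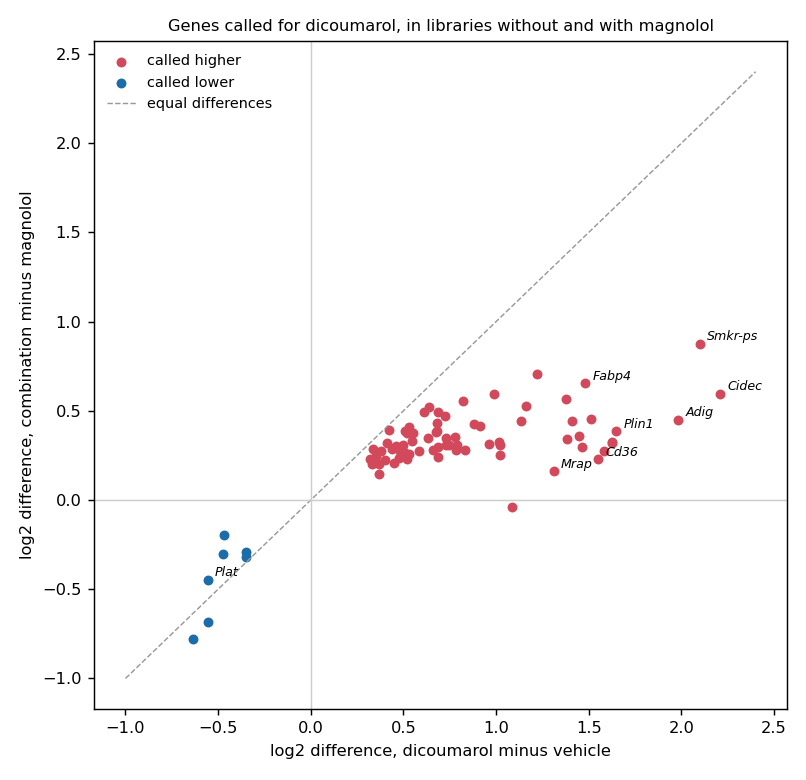
Log2 difference between the combination and magnolol (vertical axis) against the log2 difference between dicoumarol and vehicle (horizontal axis) for the 72 genes called higher and the 7 called lower, with a dashed line of equal differences. Of the 72 genes, 71 lie above 0 on the vertical axis, and the genes were chosen on the horizontal axis.

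Many of the genes above were higher with magnolol than with dicoumarol, at doses that the sources used here do not give. In that comparison 79 of 15723 genes (0.502%) were called, 66 (0.420%) higher with magnolol and 13 (0.0827%) lower, and without the block none was called (limma, 693 at an unadjusted p under 0.05, smallest adjusted p = 0.972). This comparison shares the dicoumarol libraries with the one above. Cidec averaged 401 ± 359 normalized counts in the vehicle group, 1752 ± 1309 in the dicoumarol group and 5125 ± 1656 in the magnolol group (SD, n = 3 each). For the combination its mean was 7938 ± 3101, and for rosiglitazone 34692 ± 7438 (SD, n = 3 each). In the order vehicle, dicoumarol, magnolol, combination, rosiglitazone, Fabp4 averaged 3353 ± 1378, 9329 ± 3681, 18738 ± 5693, 29299 ± 8125 and 168275 ± 52535 (SD, n = 3). Adipoq was 1.42 higher with magnolol than with dicoumarol (limma adjusted p = 5.2e-04) and Cd36 1.61 higher (limma adjusted p = 0.00171). Plat did not pass in this comparison, at 1208 ± 183 with dicoumarol and 1155 ± 161 with magnolol (SD, n = 3). Angptl4 and Adig did not either, with limma adjusted p of 0.354 and 0.445. Over the adipocyte list, the median per library was 1.69 to 2.38 for magnolol, 1.64 to 2.88 for the combination and 3.45 to 4.07 for rosiglitazone, all above dicoumarol 2 and 3, while dicoumarol 1 at 1.85 lay within the magnolol and combination ranges.

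**Figure D4:**
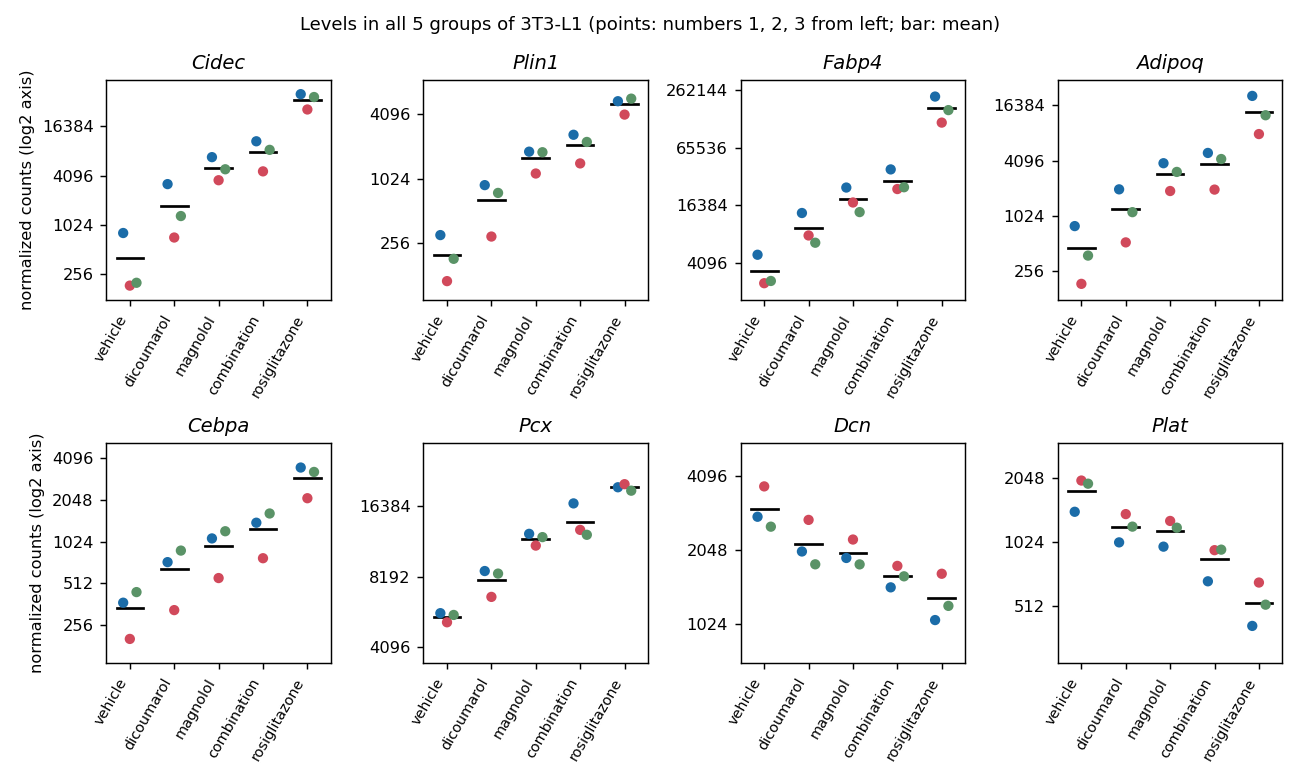
Normalized counts of 8 genes in the 15 libraries of 3T3-L1 by group, on log2 axes, with points for numbers 1 to 3 and a bar at the mean of each group. For Cidec, Plin1, Fabp4, Adipoq, Cebpa and Pcx the means rise from vehicle through dicoumarol, magnolol and the combination to rosiglitazone, and for Dcn and Plat they fall in that order.

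In porcine DFAT cells, dicoumarol was compared with vehicle in 3 libraries each, with no block. The deviations of same-numbered libraries correlated at 0.0747, 0.0948 and 0.193. These were all positive but below the 0.2288 to 0.3395 of the same groups in 3T3-L1. There 288 of 14819 genes (1.94%) were called, 135 (0.911%) higher and 153 (1.03%) lower, and with the block 670. By gene symbol, 49 of the 72 genes called higher in 3T3-L1 had a tested pig counterpart. Of these, 9 were also called higher in DFAT cells, which is 18.4% of the 49 and 10% of the 90 matched genes called higher there, against 0.961% of all matched genes. They were Adipoq, Cd36, Cidec, Fabp4, Itga7, Lipe, Plin1, Thrsp and Trarg1. A difference above 0 was seen in 38 of the 49, against 47.9% of all matched genes, with a median of 0.07. Prxl2a and Hk2, named after their values were seen, went the other way, with falls in DFAT cells of 0.31 (limma adjusted p = 0.00495) and 0.53 (limma adjusted p = 0.00178). Dcn and Plat were called lower in both systems, 2 of the 5 matched falls.

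The size of the change was then compared between systems gene by gene, as the difference of the log2 differences over its standard error. It was called for 218 of 9368 matched genes (2.33%), 131 higher in 3T3-L1. The count was 110 with a t distribution in place of the normal, and 33 with no block in the 3T3-L1 fit, where the differences of Cebpa, Cidec, Adipoq and Nqo1 below did not pass. The main test joins a 3T3-L1 fit with the block to a DFAT fit without it, and a block in both fits was not run. Cebpa was 0.88 higher in 3T3-L1 and 0.32 lower in DFAT cells, where it was not called (limma adjusted p = 0.430), and the difference passed (adjusted p = 6.0e-09). Cidec rose more in 3T3-L1 (2.21 against 0.89, adjusted p = 0.00219) and Adipoq more in DFAT cells (3.39 against 1.46, adjusted p = 1.7e-09). Plin1 rose by 1.65 and 2.15, a difference that did not pass (adjusted p = 0.243), as for Lipe at 0.79 and 1.08 (adjusted p = 0.560). Nqo1 was 0.40 lower in DFAT cells (limma adjusted p = 0.00954) and was not called in 3T3-L1, and the difference passed (adjusted p = 0.00111). The induction mixes, species and sequencing tables differed too, and their part cannot be told apart from that of the cells.

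**Figure D5:**
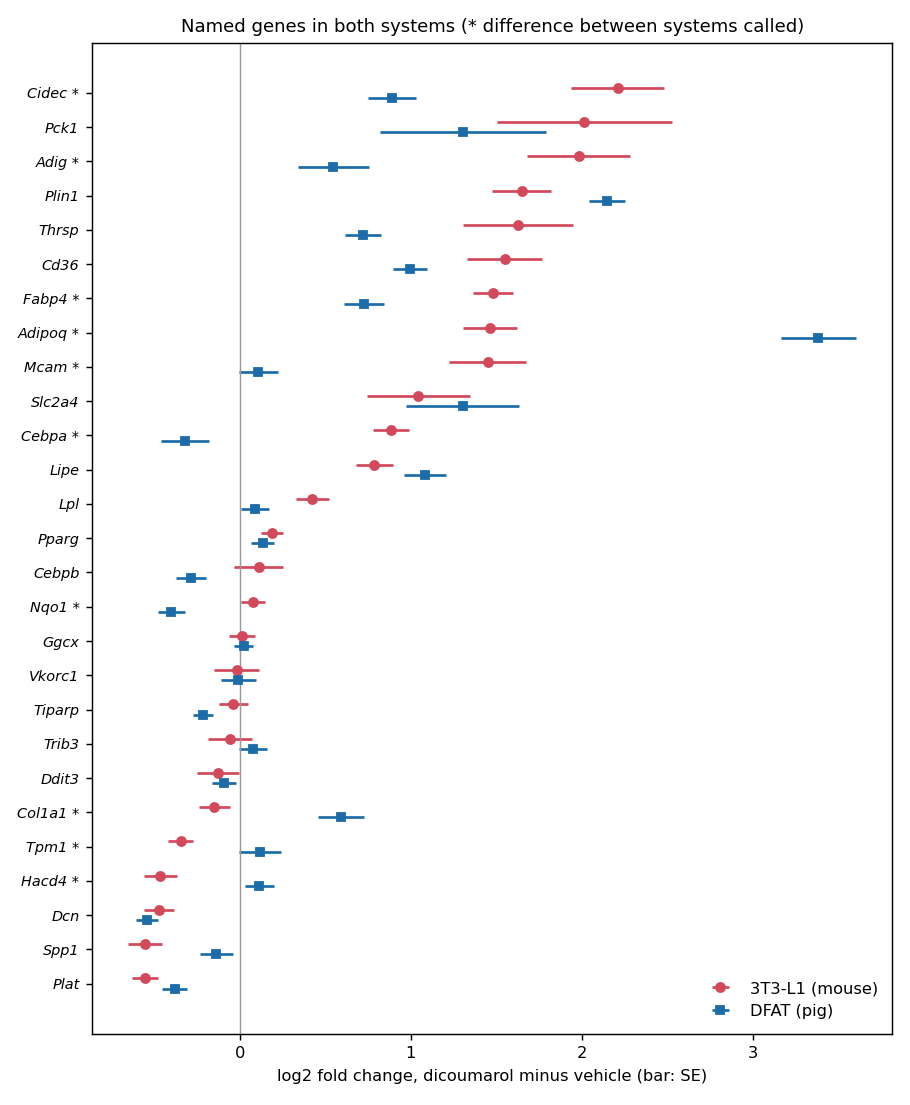
Log2 differences between dicoumarol and vehicle with standard errors for named genes tested in both systems, circles for 3T3-L1 and squares for DFAT, with an asterisk where the difference between systems was called. Plin1, Cd36 and Lipe lie to the right of 0 in both systems, Plat and Dcn to the left in both, and Cebpa on opposite sides.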

How the data were processed

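Per the labels' protocols, libraries were made from poly(A) RNA and kept the strand through dUTP. The deposited values are a signal: gene counts divided by DESeq2 size factors by the authors, 1 column per library, in 1 table per species. bcl2fastq 2.19.1.403, STAR, DESeq2 and the build GRCm38 are named in the submitters' processing notes, the last also for pig; the counter is not given in the sources used here. Of 24843 mouse genes, 24070 matched a GRCm38 annotation (GENCODE M21), 95.5% with the same length but 2.18% with the same start, so the deposited coordinates are not used. Some values are fractions of a read, whole reads could not be recovered, and the depth is unknown.

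Genes averaging at least 10 across the 15 libraries were fitted with limma 3.58.1 (R 4.3.3) on log2(value + 1), with 5 groups, a variance trend and Benjamini-Hochberg adjustment at 0.05. The replicate number was a block: in 3T3-L1 the deviations of all 30 same-numbered pairs of libraries correlated at 0.106 to 0.462 (median 0.300). The 60 differently numbered pairs ran from −0.3737 to 0.2035 (median −0.142), so the ranges overlapped. In DFAT the 3 same-numbered vehicle and dicoumarol pairs gave 0.0747, 0.0948 and 0.193, against 0.2288 to 0.3395 for such pairs in 3T3-L1, and no block was used. Differences between systems were matched by symbol and referred to a normal distribution. The fit was also run on data simulated from the same model, group plus replicate number, which cannot show whether the block is right. Plots used Python 3.11.15 and matplotlib 3.10.9.

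Named genes were a panel of 22, the 15 largest rises and up to 10 largest falls among called genes with a symbol and a mean of at least 30, and up to 4 members with the smallest p in each of 21 lists. The members, lists and role groups were chosen with earlier results of these data known. Alternatives covered the block, the libraries fitted, the pseudocount, the filter, the trend, the normalization and sample weights. Some called genes are not reported here by name.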

Additional observations from a re-analysis of the deposited data

Results flagged for a closer look

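For 29 of the 81 named genes tested in both species, the response to dicoumarol differed between 3T3-L1 and DFAT cells. The difference itself was tested, with adjustment over 9368 matched genes, of which 218 (2.33%) passed. Many named genes were chosen for their 3T3-L1 differences, which enter this test, so a larger share among them is partly built in. With no replicate block in the 3T3-L1 fit, 4 of the 29 passed (Angptl4, Col1a1, Ebf2 and Sfrp2), and with a t distribution in place of the normal 17 did, all 29 in the same direction under both. The values are the log2 difference between dicoumarol and vehicle in 3T3-L1 less that in DFAT.

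Among genes called in 3T3-L1, the response was higher in 3T3-L1 for the lipid genes Adig (1.44), Cidec (1.32), Fabp4 (0.76), Pnpla2 (0.57) and Angptl4 (0.82), the adhesion gene Mcam (1.34) and the transcription factors Cebpa (1.20) and Nr1h3 (0.51). It was also higher for the metabolic enzymes and carriers Idh3a (0.54), Slc25a1 (0.38), Taldo1 (0.36) and Bcat2 (0.35). It was lower in 3T3-L1 for Adipoq (−1.92), which rose in both systems, and for Hacd4 (−0.58) and Tpm1 (−0.46), which fell in 3T3-L1 and were not called in DFAT.

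Genes not called in 3T3-L1 differed too. The cAMP-responsive genes Nr4a3 (1.68), Nr4a1 (1.39) and Rgs2 (0.89), the lipase Mgll (1.20), the factor Ebf2 (0.56) and Nqo1 (0.48) had the higher value in 3T3-L1. In DFAT cells Nr4a1 fell by 1.21 (limma adjusted p = 4.8e-05), against 0.18 higher in 3T3-L1. The contractile genes Actg2 (−0.89), Myl9 (−0.80) and Acta2 (−0.78), the matrix genes Col1a1 (−0.74) and Thbs2 (−0.49), the precursor genes Sfrp2 (−0.86) and Pdgfrb (−0.41), and Ahr (−0.62) had the lower value in 3T3-L1. Col1a1 rose by 0.59 in DFAT cells (limma adjusted p = 0.0264) and was 0.15 lower in 3T3-L1.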

How the results depend on the processing

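The replicate block decided the dicoumarol comparison in 3T3-L1, which gave 79 calls with it, 0 without it and 6 with the number as a random effect. It also decided magnolol against dicoumarol, 79 calls with it and 0 without. The combination against magnolol and the interaction gave 0 calls with and without it. In DFAT the replicate block raised the calls from 288 to 670, and the difference between systems fell from 218 calls to 33 with no block in the 3T3-L1 fit and to 110 with a t distribution in place of the normal, an alternative chosen after seeing the data. Without a variance trend 22 genes were called for dicoumarol in 3T3-L1, and the cause was not tested. The only 6 compared libraries, a pseudocount of 8, no filter, a minimum mean of 100, quantile normalization and sample weights gave 68, 75, 64, 79, 75 and 53.

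Leaving out 1 library gave 30 to 72 calls for dicoumarol, with 51 without vehicle 1, 30 without dicoumarol 1 and 42 without dicoumarol 3. Leaving out a number gave 11 to 59, with 25 without number 1 and 11 without number 3. Magnolol against dicoumarol gave 23 to 49 with 1 library left out: 49 without dicoumarol 1, 27 without dicoumarol 2, 33 without dicoumarol 3, and 34, 23 and 24 without magnolol 1, 2 and 3. The interaction gave 0 to 1, the 1 without dicoumarol 2, and the combination against magnolol 0 throughout. DFAT gave 153 to 237, with 163 without vehicle 1 and 165, 154 and 153 without dicoumarol 1, 2 and 3. With fewer libraries these fits have fewer degrees of freedom.

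No called gene changed direction in any setting run. The changes of direction were in 12 of the 107 named genes, none of them called. Under quantile normalization Ggcx was −0.0083 (log2), and with sample weights Cd68 was −0.0417. With libraries or numbers left out, Ggcx ran from −0.0661 to 0.06, Vkorc1 from −0.26 to 0.15, Tiparp from −0.11 to 0.0682, Cebpb from −0.10 to 0.27, Trib3 from −0.19 to 0.0452, Aurka from −0.0174 to 0.258, Elovl3 from −0.0862 to 1.51, Cpt1b from −0.66 to 0.31, Alpl from −0.0094 to 0.58, Sox9 from −0.0882 to 0.0137, Csf1r from −0.39 to 0.28, and Cd68 from −0.39 to 0.48. Over 107 named genes and 18 settings, 1613 of 1911 values kept their direction and side of the threshold, 248 lost the call and 18 gained one. A count test on whole reads was planned only if whole reads could be recovered and was not run.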
